A study of Mus musculus with 10 samples.

Results

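The 56 odorant receptor (OR) genes described here lie at the distal end of mouse chromosome 10, the chromosome that also carries the Taar genes. They were chosen by name, as the rows of the count table from Olfr763 to Olfr827, a rule that reads no measured value. The table held 24421 rows, of which 1125 were OR genes and 56 met the rule. In GENCODE positions on GRCm38 (mm10) they ran from Olfr763 (chr10:129010791-129013313) to Olfr827 (chr10:130203049-130214403), a stretch of 1.2 Mb that begins 105 Mb from the Taar genes. RefSeq lists 65 genes in this number range, and 9 of them had no row of that name in the count table.

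RNA was measured in whole main olfactory epithelium (MOE) of mice at postnatal day 14, labelled C57BL/6. The methods name C57BL/6J zygotes for the lines with a single enhancer deleted. The reporting summary describes the mouse lines of the study as on mixed C57BL/6J and 129 backgrounds. The genotypes are described as littermates. Wild-type (WT, 3 libraries), heterozygous (het, 3 libraries) and homozygous (homo, 4 libraries) mice carried no, 1 or both chromosomes with TAAR enhancer 1 and TAAR enhancer 2 deleted. The deletions were made by CRISPR-Cas9 in zygotes. For the double deletion, TAAR enhancer 1 was targeted in zygotes from mice homozygous or heterozygous for the TAAR enhancer 2 deletion. The source of the animals was 1 established double knockout line, so that both deletions, the line and its founder chromosome cannot be told apart. The question asked of these libraries is whether OR genes on the chromosome of the deleted enhancers differed in RNA level between genotypes.

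Odorant receptors are G protein-coupled receptors through which olfactory sensory neurons (OSNs) detect volatile chemicals. Each mature OSN transcribes a single OR allele, chosen from a large family that is spread over many chromosomes in clusters. Enhancers inside or near these clusters, called Greek islands, gather in the nucleus of each neuron and are thought to act on the chosen gene across chromosomes as well as along their own. The receptors fall into class I, the fish-like receptors, and class II, to which the genes described here belong. TAARs form a separate, smaller family of amine receptors that are expressed by OSNs of their own.

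Most coding sequences of this group carry a form of a shared motif that is less frequent among the other ORs. ORs share a motif, named MAYDRY, at the inner end of the third transmembrane segment, where the receptor meets its G protein. In the translated GENCODE coding sequences, read in frame, the second codon of the motif encoded serine in 48 of the 56 genes (85.7%) and alanine in 8 (14.3%). Among the 1041 other ORs searched, serine was found there in 116 (11.1%) and alanine in 775 (74.4%), with tyrosine or phenylalanine allowed at the third codon. The following stretches show both forms, with the 6 codons of the motif in capitals. All are given 5′ to 3′ on the coding strand, from GENCODE transcripts on GRCm38. Olfr801 and Olfr820 were the genes of highest level and, like Olfr784, carry the serine form. Olfr763, which opens the group, and Olfr819, Olfr823 and Olfr826 carry the alanine form. In Olfr784, Olfr819, Olfr823 and Olfr826 the last codon of the motif encodes phenylalanine in place of tyrosine. Olfr1507 on chromosome 14 is shown as a well studied OR outside the group.
Olfr801 (chr10:129670140-129670184, minus strand): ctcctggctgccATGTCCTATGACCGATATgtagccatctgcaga
Olfr820 (chr10:130017696-130017740, plus strand): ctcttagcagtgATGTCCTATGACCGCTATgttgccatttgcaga
Olfr784 (chr10:129387968-129388012, plus strand): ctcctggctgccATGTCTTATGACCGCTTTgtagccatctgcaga
Olfr763 (chr10:129011626-129011670, plus strand): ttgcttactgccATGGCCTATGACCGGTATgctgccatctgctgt
Olfr819 (chr10:129966297-129966341, minus strand): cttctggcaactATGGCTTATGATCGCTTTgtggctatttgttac
Olfr823 (chr10:130112396-130112440, minus strand): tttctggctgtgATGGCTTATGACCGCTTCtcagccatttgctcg
Olfr826 (chr10:130180486-130180530, minus strand): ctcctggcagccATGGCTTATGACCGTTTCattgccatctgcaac
Olfr1507 (chr14:52490570-52490614, minus strand): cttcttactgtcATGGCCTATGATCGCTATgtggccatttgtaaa

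By the MOR names that RefSeq gives as synonyms, 55 of the 56 genes fell into 13 receptor families, and Olfr765 had no such name. The largest were MOR114 with 13 genes, MOR111 with 10 and MOR110 with 9. The 5 genes of MOR210, Olfr823 to Olfr827, lay together at the distal end. Proteins of the same family shared a median of 74.4% of their residues over 187 pairs of genes, and proteins of different families 62.4%. The genes alternated between strands in blocks, with 26 on the plus and 30 on the minus strand, and neighbours stood a median of 10.8 kb apart.

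The 10 libraries held 21423861 to 27712948 counts. The 14 olfactory Taar genes together had 850 to 915 counts per library in WT, 738 to 862 in het and 2 to 5 in homo. The homo libraries thus stood apart from the other 6, while the WT and het ranges overlapped, so that the counts do not tell WT from het libraries. Among all genes, 12 passed an adjusted p of 0.05 in homo against WT, all of them Taar genes, none passed in het against WT and 13 passed in homo against het (edgeR's quasi-likelihood test with Benjamini-Hochberg adjustment). Markers of mature OSNs were at 8576 to 10340 CPM in sum, and all 9 were detected. CPM are counts scaled so that every library has the same total. In bulk tissue, fewer neurons that chose an OR and less of its RNA per neuron cannot be told apart.

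RNA was measured for 55 of the 56 genes in every library, at mean levels from 0.635 to 12.7 CPM among these genes, all of them tested. At least 1 count was found for 55 or 56 of the 56 genes in every library, and 55 or 56 had more than 3 counts. The number detected averaged 55.3 ± 0.577 (SD, n = 3) in WT, 55.7 ± 0.577 (n = 3) in het and 55.8 ± 0.5 (n = 4) in homo. Every one of the 49 genes with a mean of at least 1 CPM, and 6 more, met the filter on low counts, so that 55 were tested. The median gene had a mean of 3.51 CPM over all libraries, against 2.56 CPM for the other 1069 OR genes. The 5 highest genes held 22.4% of the counts of the group, and 14 genes held 50% of them.

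**Figure D1:**
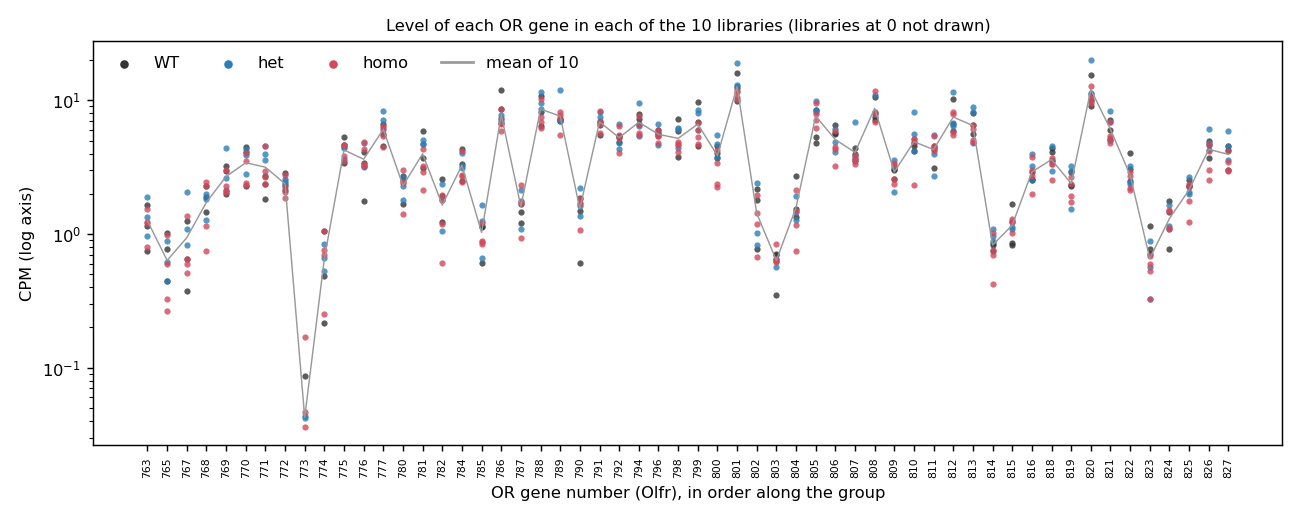
Level of each of the 56 OR genes in each of the 10 libraries (CPM, log axis), in order along chromosome 10, coloured by genotype, with the mean of all libraries as a grey line. Colours overlap at nearly every gene, Olfr801 and Olfr820 stand highest, and Olfr773 lies far below its neighbours.

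Olfr801, a receptor of the MOR110 family, was the highest gene of the group on average. It was measured at 9.83, 12.3 and 16.0 CPM in WT, 13.0, 19.1 and 12.8 CPM in het and 10.3, 10.5, 11.7 and 11.6 CPM in homo. The 4 homo libraries lay below all 3 het libraries and inside the range of WT. The fitted difference was -0.20 ± 0.17 (log2, SE) in homo against WT and -0.43 ± 0.17 in homo against het, with adjusted p of 1.0 and 0.9993 (edgeR). Without het replicate 2 the difference of homo from het was -0.212.

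Olfr820, the only MOR116 receptor here, was the next highest. Its libraries gave 10.1, 15.6 and 9.04 CPM in WT, 11.2, 20.1 and 11.4 CPM in het and 9.52, 10.7, 12.9 and 9.92 CPM in homo. The 3 genotypes overlapped, and 1 het library stood alone at the top. Olfr808 (8.72 CPM over all libraries), Olfr788 (8.60), Olfr786 (7.79) and Olfr789 (7.62) followed. Olfr789 had the smallest spread within WT, with 6.99, 7.27 and 7.09 CPM (coefficient of variation 2.03%), and Olfr790 the largest among genes of 1 CPM or more, with 1.87, 1.49 and 0.605 CPM (49.1%).

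The lowest genes that were tested were Olfr803 (0.635 CPM), Olfr765 (0.635) and Olfr823 (0.655). Between genes, levels per length depended on the gene models. Per kilobase of RefSeq sequence, Olfr801 (13.3 CPM per kb) and Olfr820 (12.8) led. Per kilobase of GENCODE exons, which include long untranslated parts, Olfr812 (4.04 CPM per kb) and Olfr799 (3.92) led, and Olfr820 was the 9th of 56. The annotation behind the counts is not given in the sources used here. The rank correlation between a gene's mean CPM and its place along the group was 0.19 over 56 genes, which share their libraries.

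Olfr773 was the only gene of the group that was not tested. It had 0, 0 and 2 counts in WT, 1, 1 and 0 in het and 1, 0, 4 and 1 in homo, 10 in all. The adjacent Olfr772, of the same MOR114 family, had 62, 55 and 66 counts in WT, 57, 57 and 64 in het and 40, 47, 53 and 76 in homo. Their coding sequences differed at 7 of 933 bases, with 98.7% of the protein shared, and how reads that match both genes were assigned is not stated. In GENCODE, Olfr773 has 1 exon of 936 bases, and the exons of Olfr772 cover 2965 bases. The part of the gene models in the difference of their counts was not tested. The windows below cover 5 of the 7 differing bases, in capitals, 5′ to 3′ on the coding strand (GENCODE, GRCm38).
Olfr772 (chr10:129174483-129174527, minus strand): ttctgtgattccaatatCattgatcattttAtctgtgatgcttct
Olfr773 (chr10:129186883-129186927, minus strand): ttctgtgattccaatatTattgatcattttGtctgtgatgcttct
Olfr772 (chr10:129174174-129174233, minus strand): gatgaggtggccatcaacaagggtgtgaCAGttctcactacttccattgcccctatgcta
Olfr773 (chr10:129186574-129186633, minus strand): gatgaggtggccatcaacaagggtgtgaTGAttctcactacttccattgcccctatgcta

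Summed over the 56 genes, the level of the group overlapped between all 3 genotypes. The sums were 195.4, 243.8 and 229.7 CPM in WT (223.0 ± 24.9, SD, n = 3), 217.0, 298.7 and 217.7 CPM in het (244.5 ± 47.0, n = 3) and 195.1, 194.8, 234.8 and 199.1 CPM in homo (206.0 ± 19.3, n = 4). Het replicate 2 was higher than every other library, and it was also the one with most RNA of all OR genes (5454 CPM against 3883 to 4553 CPM). It held the highest level of 28 of the 56 genes (50%) and of 473 of the 988 other OR genes tested (47.9%). Among the marker lists, the same library had the highest sum of sustentacular cell genes (7151 CPM against 6064 to 7052 CPM). It had the lowest sums for immature OSNs (1348 CPM against 1390 to 1724) and horizontal basal cells (109.6 against 121.1 to 134.4). The same held for microvillous cells and ionocytes (39.6 against 46.3 to 58.6) and bone (1754 against 2279 to 4476, mostly Col1a1). The vomeronasal list was also lowest there (413.2 against 418.7 to 511.4), but this sum was Gnao1 and Gnai2, with Trpc2 at 0 CPM. Only some single genes of these lists were lowest there, namely Dpysl3, Krt5, Ascl3, Foxi1, Col1a1 and Gnai2. Gap43, Gng8, Stmn2, Krt14, Trp63 (28.3 CPM), Trpm5 (6.10 CPM), Bglap, Ibsp and Gnao1 lay inside the ranges of the other libraries. Of the sustentacular genes, Cyp1a2 was not highest there. The 9 mature OSN markers of het replicate 2 summed to 8980 CPM, inside the range of the others, although Omp among them was lowest there (3572 CPM against 3641 to 4861). The part of these in its OR level was not tested.

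As a share of all OR counts, the group took 5.03%, 5.38% and 5.53% in WT, 5.13%, 5.48% and 4.99% in het and 4.74%, 4.80%, 5.16% and 4.88% in homo. The homo mean (4.89% ± 0.185, n = 4) differed by -0.419 percentage points from WT (5.31% ± 0.256, n = 3) and by -0.303 from het (5.20% ± 0.252, n = 3). A single homo library overlapped WT and het, and the other 3 lay below all 6. No test was made of a sum over the group.

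**Figure D2:**
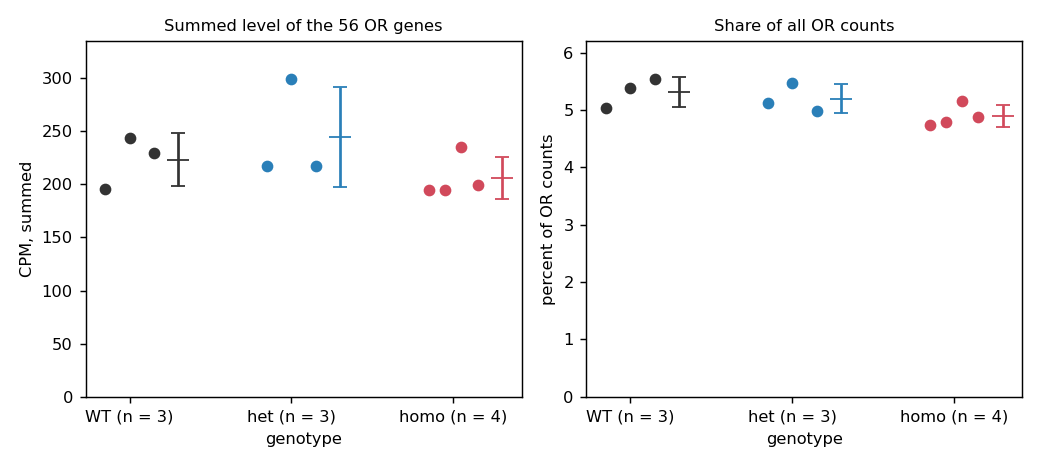
Summed level (CPM, left) and share of all OR counts (percent, right) of the 56 genes in each library, by genotype; points are libraries, and the bar beside them is the mean ± SD. The homo shares of 4.74% to 5.16% overlap the WT shares of 5.03% to 5.53%.

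No gene of the group passed the test in any contrast. In homo against WT, 0 of 55 passed an adjusted p of 0.05, where 0.0698% of all genes tested did, and 0 had an unadjusted p under 0.05, where 2.41% did. The same counts were 0 and 2 of 55 in het against WT (0.0% and 1.92% of all genes) and 0 and 3 of 55 in homo against het (0.0756% and 2.48%). DESeq2's Wald test also called 0 of 56 in each contrast, with 0, 2 and 3 at an unadjusted p under 0.05.

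In homo against WT, the median log2 fold change of the 55 genes was -0.12, with 18 higher and 37 lower and a range of -0.70 to 0.45. Across the 988 other OR genes tested it was -0.016, with 470 higher, and across all 17197 genes 0.00011. The 95% confidence interval stayed within a doubling and a halving for 47 of the 55 genes, and above a halving for 50. For the other 8 genes the interval reached past a 2-fold change, which was therefore not excluded. With library sizes set by the other OR genes, the median of the 55 genes was -0.135, with 16 higher, beside -0.031 for the other OR genes.

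In het against WT the median was 0.11, with 38 of 55 higher, beside 0.17 and 730 of 988 for the other OR genes. It was -0.044 without het replicate 2, and -0.057 when library sizes were set by the other OR genes, which moved the median of all genes by -0.15. In homo against het the median was -0.20, with 9 of 55 higher, beside -0.17 and 232 of 988 for the other OR genes, and without het replicate 2 it was -0.0030. With library sizes set by the other OR genes, which moved the median of all genes by 0.13, it was -0.052, with 21 of 55 higher.

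**Figure D3:**
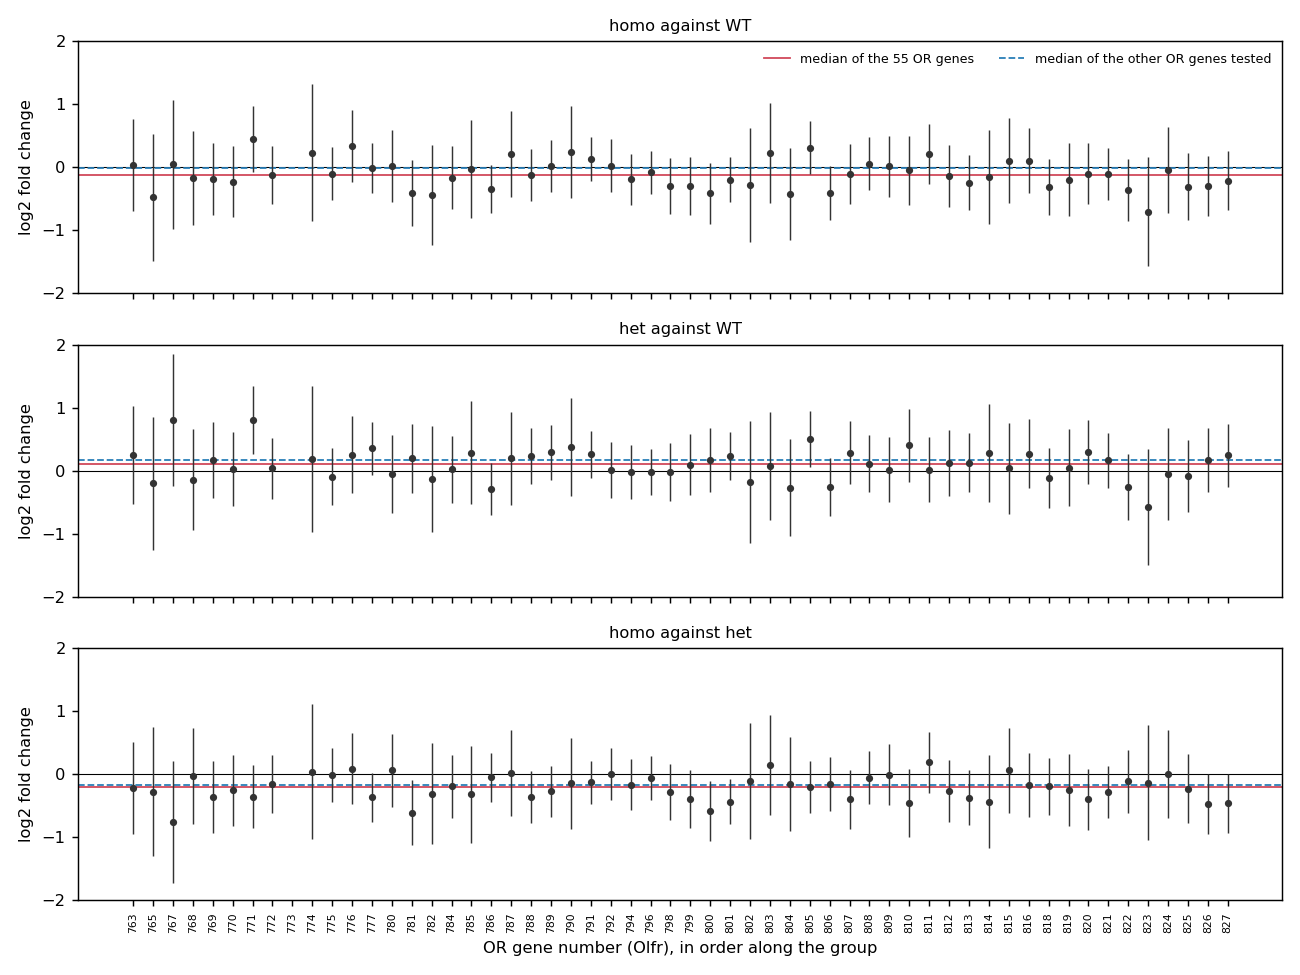
Fitted log2 fold change with its 95% confidence interval for each of the 55 OR genes tested, in order along the group, 1 panel for each pair of genotypes; lines mark the median of these genes (solid) and of the other OR genes tested (dashed). Most intervals cross 0, and in homo against WT the solid line lies at -0.12.

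The smallest unadjusted p values in homo against WT belonged to Olfr806, Olfr786, Olfr800 and Olfr771, receptors of the MOR110, MOR111, MOR114 and MOR114 families. Olfr806 was measured at 5.64, 5.75 and 6.57 CPM in WT and at 4.48, 3.23, 5.93 and 4.29 CPM in homo. Of the 4 homo libraries, 3 lay below WT and 1 inside its range. The difference was -0.41 ± 0.20 (log2, SE), with an edgeR unadjusted p of 0.0575 and an adjusted p of 1.0. The other differences were -0.34 ± 0.18 for Olfr786, -0.42 ± 0.23 for Olfr800 and 0.45 ± 0.25 for Olfr771. Leaving out 1 library moved Olfr806 to between -0.575 (without homo replicate 3) and -0.295 (without homo replicate 2), Olfr786 to between -0.523 (without WT replicate 1) and -0.106 (without WT replicate 3), Olfr800 to between -0.608 (without homo replicate 3) and -0.304 (without homo replicate 1), and Olfr771 to between 0.212 (without homo replicate 3) and 0.575 (without WT replicate 3).

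In het against WT the first 4 were Olfr771, Olfr805, Olfr777 and Olfr767. Olfr771 was measured at 1.83, 2.38 and 2.72 CPM in WT and at 3.99, 3.57 and 4.55 CPM in het. Every het library was above every WT library. The homo libraries, at 2.94, 2.39, 4.57 and 2.67 CPM, overlapped both. The difference of het from WT was 0.81 ± 0.26 (log2, SE), with an unadjusted p of 0.00645 and an adjusted p of 0.9996 (edgeR). Olfr805 differed by 0.51 ± 0.21, Olfr777 by 0.36 ± 0.20 and Olfr767, a gene near 1 CPM, by 0.81 ± 0.49. Single libraries carried much of the last 3 values: Olfr767 ran from 0.345 without het replicate 2 to 1.39 without WT replicate 2, Olfr805 from 0.351 without WT replicate 1 to 0.801 without WT replicate 2, and Olfr777 from 0.223 without WT replicate 3 to 0.504 without WT replicate 2.

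In homo against het the first 4 were Olfr800, Olfr801, Olfr781 and Olfr826. Olfr800 was measured at 3.77, 5.47 and 4.72 CPM in het and at 2.24, 2.39, 4.23 and 3.43 CPM in homo. Of the homo libraries, 1 lay inside the het range and 3 below it. The difference was -0.59 ± 0.23 (log2, SE; edgeR unadjusted p = 0.0183, adjusted p = 0.9993). Olfr781 gave 5.04, 4.71 and 4.76 CPM in het and 2.89, 2.12, 4.36 and 3.25 CPM in homo, a difference of -0.61 ± 0.24, and its WT libraries (3.10, 3.71 and 5.88 CPM) overlapped both. Olfr826, of the distal MOR210 family, differed by -0.47 ± 0.23, and by -0.309 without het replicate 2.

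Counted without a model, groups that did not overlap were few. In homo against WT it was 1 of 55 genes (3.55% of all genes tested), Olfr823, with 1.16, 0.704 and 0.778 CPM in WT and 0.327, 0.531, 0.593 and 0.686 CPM in homo. In het against WT it was 3 of 55 (5.22%), Olfr771, Olfr791 and Olfr814, each higher in het. Olfr791 was at 6.50, 5.47 and 6.92 CPM in WT and 7.46, 8.12 and 7.03 CPM in het, and Olfr814, a gene under 1 CPM on average, at 0.859, 0.743 and 0.821 CPM against 0.965, 0.883 and 1.10 CPM. In homo against het it was 2 of 55 (3.93%), Olfr781 and Olfr801, each lower in homo.

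**Figure D4:**
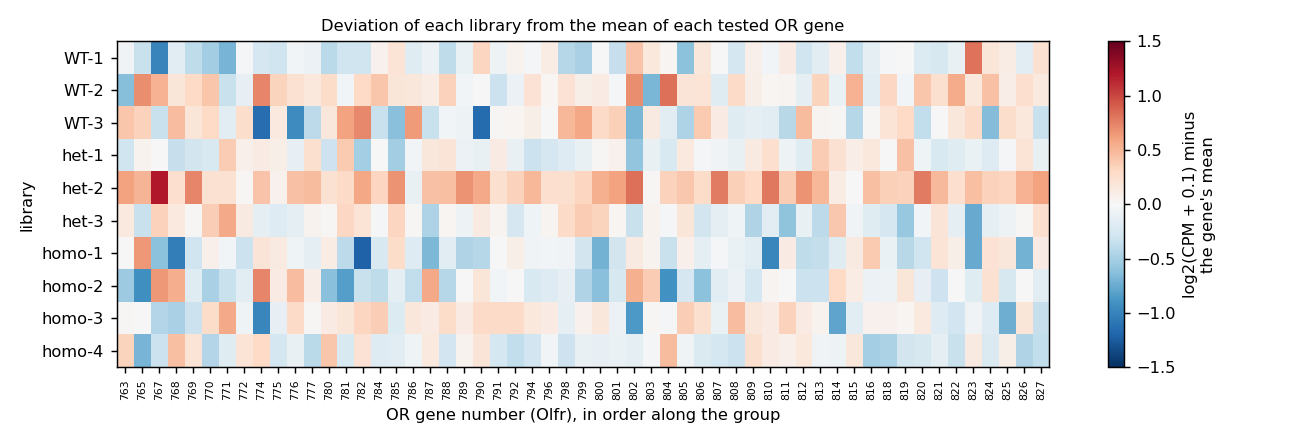
Deviation of each library from the mean of each of the 55 OR genes tested (log2 of CPM + 0.1; red higher, blue lower), in order along the group, 1 row per library. The row of het replicate 2, which holds the highest level of 28 of the 56 genes, is red at most of them.

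None of the 2 genes at each end of the group passed. At the proximal end Olfr763 differed by 0.04 ± 0.35 (log2, SE) in homo against WT, and Olfr765 by -0.47 ± 0.48. At the distal end Olfr826 differed by -0.30 ± 0.23 and Olfr827 by -0.21 ± 0.22. The MOR210 genes at that end were singled out after their values were seen. All 5 had negative estimates, as did 37 of the 55 genes tested. Their sum was 13.0 ± 1.11 CPM in WT, 13.8 ± 2.84 in het and 10.8 ± 0.606 in homo. The 4 homo sums, between 9.995 and 11.45 CPM, lay below the 3 WT sums, of which the lowest was 11.8 CPM. In every other of the 13 families the homo and WT sums overlapped. The rank correlation between the homo-to-WT estimate and the place along the chromosome was -0.19 over 55 genes.

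The larger receptor families had sums that overlapped between genotypes. The 9 MOR110 genes, Olfr801 among them, summed to 47.7 ± 6.34 CPM (SD, n = 3) in WT, 51.6 ± 11.7 (n = 3) in het and 43.8 ± 6.17 (n = 4) in homo. The 13 MOR114 genes summed to 49.9 ± 7.47 CPM in WT, 56.1 ± 6.98 in het and 45.6 ± 5.83 in homo. These 2 families and the 10 MOR111 genes held 21.3%, 22.5% and 16.7% of the CPM of the group.

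In the group, 9 pairs of genes encoded proteins at least 95% identical, 18 genes in all: Olfr772 with Olfr773 (98.7%), Olfr823 with Olfr824 (97.8%), Olfr809 with Olfr813 (97.4%), Olfr765 with Olfr767 (97.1%), Olfr825 with Olfr826 (95.8%), Olfr775 with Olfr776, Olfr814 with Olfr815, Olfr777 with Olfr800 and Olfr782 with Olfr804. Reads that match both genes of such a pair may have been assigned to either or to none. With the counts of each pair summed, which was added after the data were seen, 0 of the 47 rows of the group passed in any contrast. The pair of Olfr777 and Olfr800 had the smallest p of these sums, in homo against het, with a difference of -0.45 ± 0.15 (log2, SE; edgeR unadjusted p = 0.00783, adjusted p = 0.9991). The sum of Olfr823 and Olfr824 differed by -0.27 ± 0.27 in homo against WT, where Olfr823 alone gave -0.70 ± 0.41.

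No tested gene around the group passed either. The 10 tested genes outside the OR family among the nearest on either side, from Tmem198b to Neurod4, had a median of -0.0064 in homo against WT, and 0 of 10 passed in any contrast. On the distal side Neurod4 was the only gene tested, at -0.11 ± 0.41 (log2, SE) in homo against WT. Of the 11 other OR genes on chromosome 10, 10 were tested and 0 passed in any contrast. Their medians were 0.11 in homo against WT, 0.37 in het against WT and -0.27 in homo against het. Most of them lie far from the group, from Olfr1357 (chr10:78611003-78618074) to Olfr57 (chr10:79028741-79036274). Only Olfr9, just before Olfr763, and Olfr247, between Olfr819 and Olfr820 and not tested, lie beside or inside the group. The 113 class I OR genes tested had a median of 0.043 in homo against WT. Of 20 genes for OR choice and transport, such as Lhx2 and Ldb1, whose products bind the OR enhancers, 0 passed in any contrast and the medians were -0.022, 0.013 and -0.014.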

How the data were processed

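Whole MOE libraries were made by the authors with a directional kit after poly(A) selection, trimmed with Trimmomatic 0.36, aligned to mm10 with HISAT2 2.1.0 and counted per gene with featureCounts (Subread 1.6.2), per the labels and the methods. The unnormalized counts that the authors deposited were the only values read, and their normalized table was not used. Annotation, strand setting and treatment of multiply aligned reads are not given in the sources used here, so near-identical and overlapping genes are uncertain.

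For the tests (edgeR 4.0.16 under R 4.3.3), filterByExpr removed genes of low count (minimum count 10, minimum total count 15), TMM set the scale, and a single model of genotype covered the 10 libraries (robust quasi-likelihood, two-sided F tests, Benjamini-Hochberg over 17197 genes, call at 0.05; common biological coefficient of variation 13.9%). DESeq2 1.42.0 was an alternative. SEs are the estimate over the root of F, and intervals are 95%. Depth was 21423861 to 27712948 counts, and members had 5 to 479 counts per library where tested. Counts are not independent molecules, so counting error is only part of the spread. The tests were tested on simulated data. The methods call the genotypes littermates but do not say which libraries share a litter or that each is a separate animal, so p-values measure the spread between these samples, which may be partly technical.

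The rule for the members reads gene names only, but the members and gene lists were chosen with earlier results of these data known. Genes are named if called, if among the 6 highest or 3 lowest tested, if among the 4 smallest p of a contrast, if not tested, if at an end (2 each), if in a pair of at least 95% protein identity, or if of extreme WT variation; the others were named after their values were seen. Protein identity was computed from translated GENCODE M21 coding sequences, because no protein table was used. Replicate numbers paired WT with het libraries (correlations of deviations 0.326, 0.285 and 0.235) but not homo with either (-0.148 to 0.159). Homo libraries and those of unlike number ran from -0.391 (het replicate 3 with homo replicate 2) to 0.269 (WT replicate 3 with homo replicate 4). Replicates of a genotype differed by more than counting noise (chi-square over degrees of freedom, 14.5 to 49.3), so no 2 replicates of a genotype looked like copies of each other. Libraries of different genotypes were not compared in this way.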

Additional observations from a re-analysis of the deposited data

Results flagged for a closer look

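Of 34 values checked within the 4 homo libraries, 2 had a library far from the other 3, where chance flags about 1 in 20. The summed level of the 56 genes was 235 CPM in homo replicate 3 against 194.8 to 199.1 CPM in the others. Olfr767 was at 1.37 CPM in homo replicate 2 against 0.513 to 0.649 CPM.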

How the results depend on the processing

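The count of genes called stayed at 0 in every contrast under every alternative: DESeq2 size factors, no scaling, library sizes from the other OR genes, no filter, a mean of at least 1 CPM, DESeq2, the replicate block, the near-identical pairs summed (chosen after seeing the data), and each library left out in turn. With the replicate block, 0 of 55 passed in each contrast. The medians were -0.10 in homo to WT, 0.12 in het to WT and -0.19 in homo to het. Homo replicate 4 was alone in its block, so it added nothing to these differences. The blocked homo contrasts also rested on a pairing that the data did not bear out. In WT and het alone, the fit whose pairing the data bear out, 0 of 55 passed, with a median of 0.11. The block changed no call of the group. Among all genes it gave 19, 0 and 24 calls against 12, 0 and 13, and 3 calls in WT and het alone.

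Leaving out single libraries gave medians of -0.19 to -0.050 in homo against WT, -0.044 to 0.20 in het against WT and -0.29 to -0.0030 in homo against het. The last bound, and the negative value in het against WT, came without het replicate 2. The log2 ratio of the sums was -0.20 to -0.045, -0.037 to 0.21 and -0.33 to -0.077, the difference in share -0.560 to -0.310, -0.256 to -0.0063 and -0.409 to -0.164 percentage points, and the difference in genes detected 0.25 to 0.75, 0.167 to 0.667 and -0.25 to 0.333. The smallest adjusted p of a named gene under any alternative was 0.743. With 3 or 4 libraries a group and a median SE of 0.233 on the log2 scale in homo against WT, small changes of single genes could be missed.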
